A study of Mus musculus with 9 samples.

Results

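The genes described here encode 10 core proteins of the nucleolus and of its small nucleolar ribonucleoproteins (snoRNPs): *Ncl*, *Npm1*, *Nolc1*, *Fbl*, *Nop56*, *Nop58*, *Dkc1*, *Gar1*, *Nhp2* and *Nop10*. They were picked by name and function, with earlier results of these data known, and all 10 were listed in the deposited table of 15184 genes. The rule itself uses no measured value. All 10 also had a mean above 50 normalized counts. The RNA-Seq data are from polyA+ RNA of mouse embryonic fibroblasts (MEFs), fibroblasts grown from mouse embryos, in 9 libraries. The 3 Empty libraries carry the genotype label Empty vector. The 3 libraries of line SAM1 and the 3 of line SAM2 carry the label Hnrnpk_SAM. According to the study's methods, WT MEFs received lentiviral lentiMPHv2 and lentiSAMv2, the parts of the CRISPR/dCas9 synergistic activator mediator (SAM), and were selected with blasticidin and hygromycin. Different guides against *Hnrnpk*, an RNA-binding protein gene, were used independently. Neither the labels nor the methods say which guide each line carries, whether a line is 1 clone, or whether its 3 libraries came from separate cultures, so p-values measure the spread between libraries, which may be technical. The methods also print the same sequence for the second *Hnrnpk* guide and for the non-targeting control guide.

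Ribosomal RNA is transcribed, modified and cut in the nucleolus. SnoRNPs guide 2 of its chemical modifications: box C/D snoRNPs place methyl groups on ribose, and box H/ACA snoRNPs convert uridine to pseudouridine. Each snoRNP pairs a short guide RNA with a fixed set of core proteins. Fibrillarin (*Fbl*) is the methyltransferase of the box C/D class, and NOP56 and NOP58 are the paired scaffold proteins that hold it. Dyskerin (*Dkc1*) is the pseudouridine synthase of the box H/ACA class, with GAR1, NHP2 and NOP10 as its partners. Nucleolin (*Ncl*) and nucleophosmin (*Npm1*) are abundant nucleolar proteins that bind ribosomal RNA and assembling particles, and NOLC1 (Nopp140) is a chaperone that binds both classes of snoRNP.

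Several of these genes carry snoRNAs in their own introns, so that 1 primary transcript can give both an mRNA for a nucleolar protein and a guide RNA. In GENCODE vM39 on GRCm39, 13 snoRNA genes lay inside introns of 4 of the 10 genes, 5 in *Nop56*, 4 in *Nop58*, 3 in *Ncl* and 1 in *Dkc1*, and the other 6 genes held none. Of these 13, 10 had a box C (ATGATGA or GTGATGA, with at most 1 mismatch) within 20 bases of the start and a box D (CTGA) within 20 bases of the end, and 2 had ACA at the place that defines the H/ACA class. Among all 1507 annotated snoRNA genes, 25.0% had boxes C and D and 18.0% had the ACA by the same search. The snoRNAs of *Ncl*, *Nop56* and *Nop58* with a Snord or Snora name are printed because their host mRNAs moved in different directions. Capitals mark boxes C and D, or the ACA of the H/ACA snoRNA. Box C has 1 mismatch in Snord57 and in Snord70. On GRCm39, Snord82 lies in intron 5 of 13 of *Ncl*, chr1:86283983-86284052, minus strand. Snora75 lies in intron 12 of 13 of *Ncl*, chr1:86278891-86279023, minus strand. Snord110 lies in intron 3 of 11 of *Nop56*, chr2:130117426-130117493, plus strand. Snord57 lies in intron 10 of 11 of *Nop56*, chr2:130119936-130120007, plus strand. Snord70 lies in intron 2 of 14 of *Nop58*, chr1:59731093-59731179, plus strand. Snord11 lies in intron 9 of 14 of *Nop58*, chr1:59743949-59744032, plus strand.
Snord82: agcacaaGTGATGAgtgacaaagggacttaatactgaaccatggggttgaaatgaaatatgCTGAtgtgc
Snora75: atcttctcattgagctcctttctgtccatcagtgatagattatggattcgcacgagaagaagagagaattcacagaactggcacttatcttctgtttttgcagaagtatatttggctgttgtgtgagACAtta
Snord110: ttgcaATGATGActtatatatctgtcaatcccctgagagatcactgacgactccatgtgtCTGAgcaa
Snord57: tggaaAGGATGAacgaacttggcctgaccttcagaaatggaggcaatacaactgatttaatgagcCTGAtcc
Snord70: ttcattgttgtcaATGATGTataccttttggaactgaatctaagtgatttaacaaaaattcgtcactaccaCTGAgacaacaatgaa
Snord11: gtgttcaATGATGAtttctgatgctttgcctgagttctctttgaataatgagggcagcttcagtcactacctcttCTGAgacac
None of the 13 snoRNA genes was among the deposited genes, and polyA+ libraries are not made to capture such short RNAs, so the values given for these hosts are those of the mRNAs.

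The unit throughout is the normalized count, which the authors obtained per gene by dividing reads by a size factor of the library from DESeq2. In the 8 libraries where whole reads could be recovered from the values, 41759636 to 49026626 reads lay on the listed genes. Libraries of a group correlated across genes with r from 0.995 to 0.997. The summed normalized counts of SAM1 and SAM2 were 90.6% and 93.1% of the Empty mean. Scaling every library to the same total, an alternative chosen after seeing these sums, moved the median log2 fold change of all genes from 0.0087 to 0.13 in the pooled comparison, and the share of calls that were higher from 49.8% to 65.3%. *Hnrnpk*, the gene that the SAM was aimed at, had 25773 ± 621 normalized counts in Empty, 23922 ± 264 in SAM1 and 26563 ± 321 in SAM2 (mean ± SD, n = 3 each). Its log2 fold change was -0.11 in SAM1 (limma adjusted p = 0.00252) and 0.044 in SAM2 (limma adjusted p = 0.159). With quantile normalization these became 0.094 in SAM1 (limma adjusted p = 0.00502) and 0.22 in SAM2 (4.59e-06 by limma), and the pooled value, -0.032 with the authors' scaling (0.642 by limma), became 0.16 (0.0199 by limma). With library totals they were 0.035 in SAM1 (limma adjusted p = 0.266) and 0.15 in SAM2 (0.000335 by limma). Because the *Hnrnpk* difference changes with the scaling, and in SAM1 also its direction, "labelled Hnrnpk SAM" is used for these 6 libraries wherever a direction is given. All 10 fibroblast markers were listed, and their summed values were 1036577 to 1131913 in Empty, 863003 to 924719 in SAM1 and 1163336 to 1201965 in SAM2, so that the groups did not overlap. Single fibroblast markers went both ways, from 57.0% of the Empty mean for *Pdgfra* in SAM2 to 191% for *Pdgfrb* in SAM1. The 4 endothelial markers summed to 301 to 357 in Empty, 4613 to 4988 in SAM1 and 638 to 689 in SAM2. Most of this sum was *Kdr*, with means of 211, 4693 and 536 in Empty, SAM1 and SAM2. In the same order, *Cdh5* had means of 77.6, 64.7 and 51.2. *Pecam1* had 12.90, 29.45 and 11.99, and *Tek* had 35.56, 29.05 and 67.10. Of the epithelial, leukocyte and muscle marker lists, *Epcam*, *Krt18*, *Ptprc*, *Adgre1*, *Myod1* and *Myog* were not listed. Their listed genes did have values. Means in Empty, SAM1 and SAM2 were 33.9, 88.7 and 32.4 for *Cdh1* and 12.2, 23.0 and 16.7 for *Krt8*. They were 225, 252 and 111 for *Csf1r*, 375, 527 and 564 for *Cd68*, and 67.7, 102 and 232 for *Des*. The part of these markers in the results was not tested.

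Against Empty, the 6 libraries labelled Hnrnpk SAM had more mRNA of nucleolin, NOLC1, NOP56, NHP2 and NOP10 and less mRNA of nucleophosmin, fibrillarin and NOP58. The 10 genes therefore did not move as a block, and the paired scaffold proteins NOP58 and NOP56 moved in opposite directions. *Nop56* had the highest log2 fold change of the 10 in SAM2, whereas in SAM1 those of *Ncl*, *Nhp2* and *Nolc1* were higher than that of *Nop56*. By limma on log2(value + 1), with Benjamini-Hochberg adjustment over all 15184 genes and a threshold of 0.05, 5 of 10 rose and 3 fell, while 26.8% of all genes were called higher and 27.0% lower. In SAM1 alone, 5 rose and 3 fell, against 37.3% and 36.9% of all genes, and in SAM2 alone 6 rose and 3 fell, against 35.2% and 35.3%. Both lines were compared with the same 3 Empty libraries. The median log2 fold change of the 10 genes was 0.12 in the pooled comparison, 0.11 in SAM1 and 0.12 in SAM2, beside 0.0087, 0.0093 and -0.0015 for all genes. Without Empty replicate 3, 3 members were called higher in the pooled comparison, because the limma adjusted p became 0.0565 for *Nop56* and 0.0531 for *Nolc1*. Of all 15184 genes, 3368 were then called higher and 3393 lower. With the library totals scaling, 6 members were called higher and 2 lower, beside 5344 higher and 2838 lower of all genes. In these bulk samples, fewer cells that express a gene and less RNA per cell cannot be told apart.

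**Figure D1:**
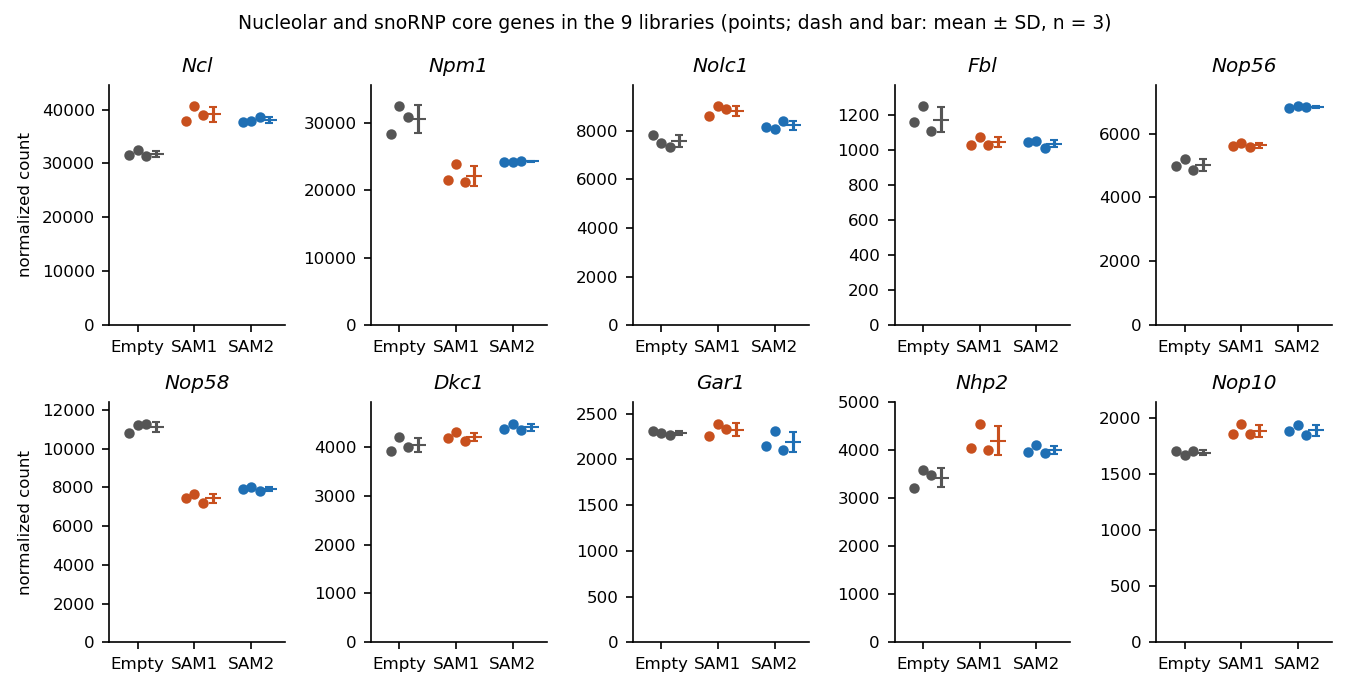
Normalized counts of the 10 genes in each library (points), with the mean and SD of the 3 libraries of Empty, SAM1 and SAM2 beside them, and a vertical axis that starts at 0 in each panel. *Nop58* and *Npm1* lie lower in all 6 SAM1 and SAM2 libraries than in Empty, *Ncl*, *Nop56*, *Nhp2*, *Nop10* and *Nolc1* lie higher, and *Gar1* overlaps between the groups.

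Nucleolin and nucleophosmin, the most abundant of these mRNAs, moved in opposite directions. *Ncl* (chr1:86272441-86287208, minus strand, 14 exons) had 31643, 32443 and 31349 normalized counts in Empty replicates 1 to 3, 37783, 40579 and 39046 in SAM1, and 37745, 37845 and 38638 in SAM2. Each SAM library exceeded every Empty library. The log2 fold change was 0.28 in the pooled comparison (SE 0.039, limma adjusted p = 0.000229), 0.30 in SAM1 (9.65e-07 by limma) and 0.26 in SAM2 (4.49e-06 by limma). *Npm1* (chr11:33100281-33113267, minus strand, 11 exons) had 28317, 32468 and 30914 normalized counts in Empty, 21496, 23909 and 21172 in SAM1, and 24287, 24233 and 24402 in SAM2. Its groups did not overlap either, and the 3 SAM2 libraries lay closest together, with a SD of 0.355% of their mean against 6.86% in Empty. Mean values were 72.6% of Empty in SAM1 and 79.5% in SAM2. The pooled log2 fold change was -0.39 (SE 0.066, limma adjusted p = 0.000743), with -0.46 in SAM1 (2.13e-06 by limma) and -0.33 in SAM2 (6.03e-05 by limma). Because both genes were read in the same libraries, their ratio does not change when a whole library is multiplied by 1 factor. Quantile normalization is not such a factor. Per library, *Ncl* over *Npm1* was 1.12, 0.999 and 1.01 in Empty, 1.76, 1.70 and 1.84 in SAM1, and 1.55, 1.56 and 1.58 in SAM2, so that the 3 groups did not overlap. *Nolc1* (chr19:46064234-46073983, plus strand, 13 exons), the chaperone of both snoRNP classes, had 7834, 7504 and 7336 normalized counts in Empty, 8580, 8994 and 8869 in SAM1, and 8165, 8061 and 8403 in SAM2. It was higher in 6 of 6 SAM libraries than in any Empty library, with a pooled log2 fold change of 0.17 (SE 0.045, limma adjusted p = 0.0101).

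Among the box C/D proteins, the partners NOP56 and NOP58 moved apart. *Nop58* (chr1:59724106-59758203, plus strand, 15 exons) had 10832, 11212 and 11290 normalized counts in Empty, 7448, 7680 and 7212 in SAM1, and 7932, 8035 and 7812 in SAM2. No SAM library came near the lowest Empty library, and the means were 67.0% and 71.3% of Empty. The log2 fold change was -0.53 in the pooled comparison (SE 0.042, limma adjusted p = 6.08e-06), -0.58 in SAM1 (1.29e-09 by limma) and -0.49 in SAM2 (1e-08 by limma). *Nop56* (chr2:130115808-130121238, plus strand, 12 exons) had 4995, 5209 and 4856 normalized counts in Empty, 5626, 5693 and 5566 in SAM1, and 6788, 6853 and 6845 in SAM2. Its 3 groups were separate and in this order. Means were 112% of Empty in SAM1 and 136% in SAM2, with log2 fold changes of 0.17 (SE 0.030, limma adjusted p = 0.000248) and 0.44 (SE 0.030, limma adjusted p = 2.35e-08). The ratio of *Nop56* to *Nop58* within a library was 0.461, 0.465 and 0.430 in Empty, 0.755, 0.741 and 0.772 in SAM1, and 0.856, 0.853 and 0.876 in SAM2. In the intact complex the proteins are present as a pair, while these ratios are of reads per gene and take no account of transcript length. *Fbl* (chr7:27868353-27878701, plus strand, 9 exons), the methyltransferase, was the least counted member, with 1162, 1252 and 1111 normalized counts in Empty, 1033, 1079 and 1033 in SAM1, and 1046, 1056 and 1016 in SAM2. Its Empty values all lay above its SAM values, by a smaller margin than those of *Nop58*. The pooled log2 fold change was -0.17 (SE 0.048, limma adjusted p = 0.0136), and 0.106, 0.141 and 0.131 were the mean ratios of *Fbl* to *Nop58* in Empty, SAM1 and SAM2. The fall of *Fbl* was not called with the library totals scaling, with -0.046 in the pooled comparison (limma adjusted p = 0.469), -0.021 in SAM1 (0.712 by limma) and -0.072 in SAM2 (0.210 by limma). Without Empty replicate 2, the pooled value was -0.12 (limma adjusted p = 0.0681).

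**Figure D2:**
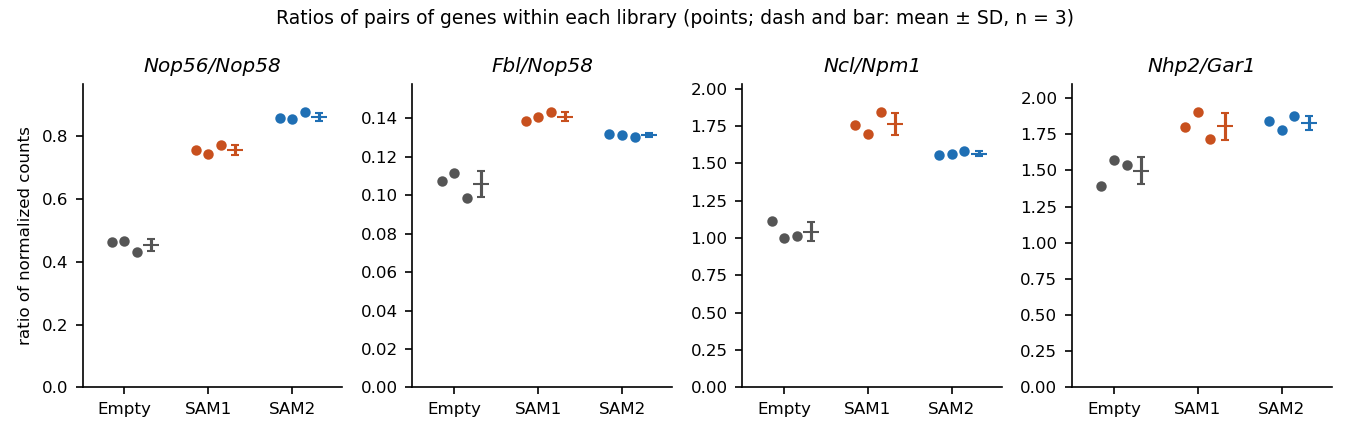
Ratios of the normalized counts of 2 genes within each library (points), with the mean and SD of the 3 libraries of each group, for *Nop56* over *Nop58*, *Fbl* over *Nop58*, *Ncl* over *Npm1* and *Nhp2* over *Gar1*. The mean ratio of *Nop56* to *Nop58* is 0.452 in Empty, 0.756 in SAM1 and 0.862 in SAM2, and in every panel the SAM libraries lie above the Empty libraries.

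Of the 4 box H/ACA genes, *Nhp2* and *Nop10* rose in the pooled comparison, and *Dkc1* and *Gar1* were not called. *Nhp2* (chr11:51510383-51520806, plus strand, 4 exons), an RNA-binding subunit, had 3211, 3593 and 3482 normalized counts in Empty, 4044, 4550 and 4001 in SAM1, and 3953, 4104 and 3949 in SAM2. SAM1 replicate 2 stood above the other SAM libraries, and all 6 exceeded Empty. The pooled log2 fold change was 0.26 (SE 0.056, limma adjusted p = 0.00345). *Nop10* (chr2:112092271-112093764, plus strand, 2 exons), the smallest subunit, had 1704, 1670 and 1706 normalized counts in Empty, 1856, 1952 and 1861 in SAM1, and 1884, 1943 and 1850 in SAM2. The gain was alike in both lines, with a log2 fold change of 0.16 in SAM1 (SE 0.036, limma adjusted p = 0.00131) and 0.16 in SAM2 (SE 0.036, limma adjusted p = 0.00128). *Dkc1* (chrX:74139460-74155456, plus strand, 15 exons), the pseudouridine synthase, had 3911, 4192 and 3994 normalized counts in Empty, 4176, 4291 and 4115 in SAM1, and 4364, 4470 and 4340 in SAM2. Empty and SAM1 overlapped, while SAM2 lay above both. With the authors' scaling and all libraries, it passed the test in SAM2, with a log2 fold change of 0.12 (SE 0.033, limma adjusted p = 0.00462), beside 0.057 in SAM1 (SE 0.033, limma adjusted p = 0.136), and the difference between the lines was not called. In SAM1 *Dkc1* was called higher with quantile normalization (0.14, limma adjusted p = 0.00283), with library totals (0.20, 0.000174 by limma) and without Empty replicate 2 (0.085, 0.0289 by limma). Its pooled value was called with quantile normalization, with library totals and with the mean of the lines, between 0.090 and 0.21. *Gar1* (chr3:129618560-129625045, minus strand, 7 exons), the subunit that contacts the substrate-bound enzyme, had 2310, 2287 and 2266 normalized counts in Empty, 2249, 2390 and 2333 in SAM1, and 2148, 2308 and 2106 in SAM2. These ranges overlapped. The pooled log2 fold change was -0.022 with a 95% interval from -0.13 to 0.084 (limma adjusted p = 0.720), and this value became 0.10 with the library totals scaling, which gave 0.16 in SAM1 (limma adjusted p = 0.00259). Without SAM2 replicate 2, *Gar1* was called lower in SAM2, at -0.10 (limma adjusted p = 0.0349). The mean ratio of *Nhp2* to *Gar1* was 1.50 ± 0.0962 in Empty, 1.81 ± 0.0948 in SAM1 and 1.83 ± 0.0490 in SAM2 (SD, n = 3 each).

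Between the lines, *Nop56* was the clearest difference, with SAM2 above SAM1 by 0.28 on the log2 scale (SE 0.030, limma adjusted p = 4.24e-06). It passed in every alternative tried, between 0.23 and 0.29. *Npm1* (0.13, limma adjusted p = 0.0356) and *Nop58* (0.090, limma adjusted p = 0.0210) were also higher in SAM2, and *Nolc1* was lower (-0.10, limma adjusted p = 0.0147). In all, 3 members were called higher and 1 lower, against 31.1% and 29.2% of all genes. The differences of *Npm1* and *Nop58* rested on small margins. Both lost their call with edgeR and DESeq2 on the recovered reads, with quantile normalization and library totals scaling, and without SAM1 replicate 1 or 3 or SAM2 replicate 1 or 2. *Npm1* also lost it without Empty replicate 3 or SAM2 replicate 3, and *Nolc1* with DESeq2 and without SAM2 replicate 1 or 2. The recovered reads used for edgeR and DESeq2 lacked SAM2 replicate 1. A loss of the call there cannot be told apart from the effect of leaving this library out. The limma adjusted p without 1 of these libraries went up to 0.137 for *Npm1*, 0.0997 for *Nop58* and 0.0655 for *Nolc1*. For the other 6 genes the difference was not called, and its 95% interval was -0.10 to 0.026 for *Ncl*, -0.12 to 0.091 for *Fbl*, -0.0053 to 0.14 for *Dkc1*, -0.17 to -0.0023 for *Gar1*, -0.18 to 0.045 for *Nhp2* and -0.075 to 0.079 for *Nop10*. *Gar1* was called lower in SAM2 than in SAM1 with quantile normalization (-0.14, limma adjusted p = 0.00806), with library totals (-0.13, 0.0170 by limma) and without SAM2 replicate 2 (-0.13, 0.0175 by limma).

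**Figure D3:**
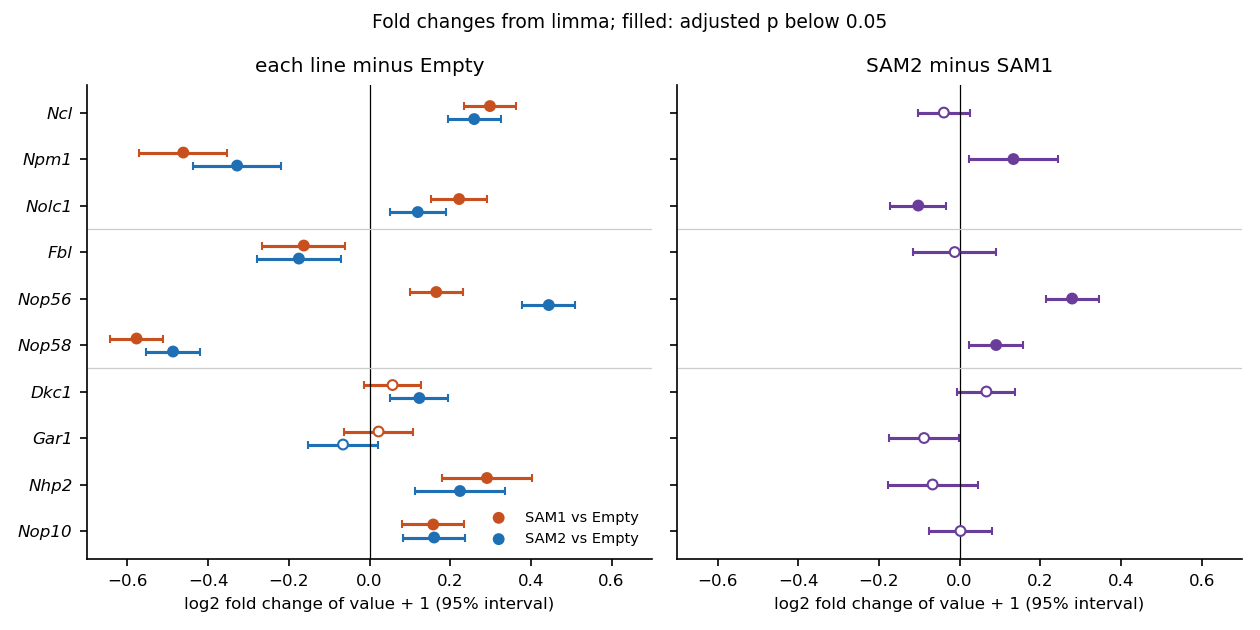
Log2 fold changes of value + 1 (points) with 95% intervals (bars) from limma, for each line against Empty at the left and for SAM2 against SAM1 at the right. Filled points passed an adjusted p of 0.05; *Nop58* and *Npm1* have the lowest values in both lines, *Nop56* is highest in SAM2 at 0.44, and its difference between the lines is 0.28.

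Per length, nucleophosmin and nucleolin mRNA stood above the other 8 genes. On the scale of normalized counts per kb of the canonical spliced transcript, *Npm1* had 18358 ± 1260 in Empty, 13329 ± 898 in SAM1 and 14599 ± 51.8 in SAM2 (SD, n = 3 each). *Ncl* had 3838 ± 68.3, 4722 ± 169 and 4594 ± 59.0. They kept ranks 1 and 2 in each group with the canonical length, the length of all annotated exons and the coding length, although their values on the all-exon scale were close in SAM1, at 3917 per kb for *Npm1* and 3809 for *Ncl*. The order of the other 8 depended on the length used. *Nhp2* ranked 3 of 10 by canonical length in every group, 7 by all exons and 4 by coding length. *Nop58* shows the dependence most plainly: it ranked 10 by canonical length in both lines, on a transcript of 9561 bases, and 5 by its coding length of 1608 bases.

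Reads of some members can fit elsewhere in the genome. Of all stretches of 43 bases, the read length, in the canonical transcript, 82.5% of *Fbl* and 51.6% of *Npm1* occurred again outside the gene on GRCm39, as did 31.7% of *Nop56*. The share was 5.67% in *Nop10*, between 0.518% and 3.80% in *Ncl*, *Nop58*, *Dkc1*, *Nhp2* and *Nolc1*, and none of the 1230 stretches of *Gar1* recurred. The authors allowed alignments to several places, and how such reads entered the counts is not given in the sources used here, so the levels of *Fbl*, *Npm1* and *Nop56* are less certain than those of the others. How much this contributes to their changes was not tested. Opposite-strand overlaps over all annotated exons were 1246 bases of *Dkc1* with *Mpp1*, 967 of *Nhp2* with *Rmnd5b* and 12 of *Nop56* with *Idh3b*. The canonical transcript of *Nhp2* held 52 of its 967. Others were 426 bases of *Ncl* with *C130036L24Rik*, 711 of *Nop56* with *2810036E18Rik*, and 700 and 447 of *Fbl* with *Gm31024* and *Gm73807*. Of these genes, *2810036E18Rik* and *Gm73807* were not listed. The library kit keeps strand, but whether counting used it is not stated, and without strand such reads cannot be told apart.

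The genes around *Nop58* were lower too. Within 1 Mb of it, 22 other genes were listed. In the pooled comparison, where 27.0% of all genes were called lower and 26.8% higher, 16 of these 22 were called lower and 1 higher. Their median log2 fold change was -0.53, the same as that of *Nop58* itself, whereas the median of the 864 other listed genes on its chromosome was -0.18. In SAM1 the neighbours had a median of -0.62 with 18 called lower, against 36.9% of all genes. In SAM2 they had -0.48 with 18 called lower, against 35.3%. Over 10 Mb to each side, 85 of 108 genes lay below 0 with a median of -0.38. Around *Npm1*, at -0.39, 4 of 11 neighbours were called lower and 1 higher, with a median of -0.083. By line, the medians of its neighbours were -0.096 in SAM1, beside -0.46 for *Npm1*, and -0.25 in SAM2, beside -0.33. Over 10 Mb to each side of *Npm1*, 38 of 55 genes lay below 0 with a pooled median of -0.19. *Fbl*, at -0.17, had 59 neighbours with a median of -0.22, of which 23 were called lower and 7 higher, on a chromosome with a median of -0.24. *Ncl*, on the same chromosome as *Nop58*, rose by 0.28 where its 22 neighbours had a median of -0.069. In SAM1 the neighbours had 0.14, beside 0.30 for *Ncl*, and in SAM2 -0.032, beside 0.26. *Nop56* and *Nhp2* had neighbours with medians of 0.12 and 0.21, beside their own 0.30 and 0.26, and *Nop10* at 0.16 had 7 with a median of 0.23. The other listed genes on the chromosome had pooled medians of 0.21 for *Nop56* and *Nop10* and 0.047 for *Nhp2*. For *Ncl*, *Nolc1* and *Npm1* the chromosome medians were -0.19, -0.090 and 0.048. For *Nop56* and *Nop10* the chromosome median was 0.27 in SAM1, above their own 0.17 and 0.16. In SAM2 it was 0.16, beside 0.44 and 0.16. For *Nop56* the neighbours had 0.20 in SAM1, beside its 0.17, and 0.021 in SAM2, beside its 0.44. From SAM1 to SAM2 they had a median of -0.24, while *Nop56* had 0.28. *Nolc1* rose by 0.17 among 33 neighbours with a median of -0.11. Whether the position of a gene has a part in its change was not tested.

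**Figure D4:**
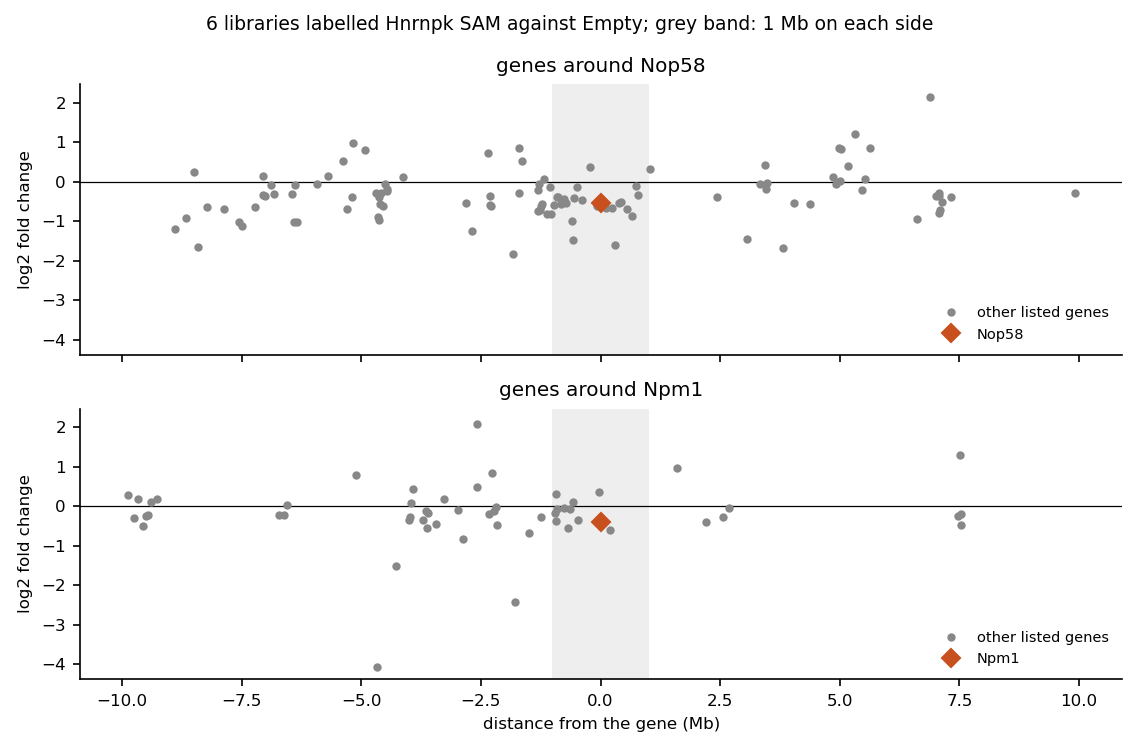
Log2 fold change of the 6 libraries labelled Hnrnpk SAM against Empty for each listed gene (grey points) within 10 Mb of *Nop58* (top) and *Npm1* (bottom), by distance in Mb, with the named gene as an orange diamond and 1 Mb to each side shaded. Within the shaded band the genes around *Nop58* have a median of -0.53, and those around *Npm1* a median of -0.083.

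The start regions of 8 of the 10 genes were in the RefSeq promoter table (GRCm38.p6), which has no entry for *Npm1* and *Fbl*. In the 250 bases before the start, searched on both strands with overlaps allowed, the E-box CACGTG occurred in 0 of 8, against 6.02% of 32851 promoters. The ETS letters CCGGAAG occurred in 3 (*Gar1*, *Nhp2* and *Nolc1*; 6.91% of all promoters), TGACG, the core of the cAMP response element, in 3 (*Ncl*, *Nolc1* and *Nop58*; 17.8%), CCAAT in 2 (*Nop56* and *Nhp2*; 33.8%) and the GC box CCGCCC in 5 (32.7%). TCTCGCG was found in *Nop58* alone among the 8 (2.10% of all promoters). Each match is a description of letters and no shown binding site. The promoters of *Nop56* and *Nop58* are printed because their products pair in 1 complex while their mRNAs moved apart. Capitals mark matches on either strand: the GC box and, on the minus strand, CCAAT in *Nop56*, and TCTCGCG, the GC box on the minus strand and TGACG, in this order, in *Nop58*. On GRCm38.p6 the stretches are chr2:130274162-130274411, plus strand, with 65.2% G or C, and chr1:59684756-59685005, plus strand, with 41.2%.
Nop56 promoter: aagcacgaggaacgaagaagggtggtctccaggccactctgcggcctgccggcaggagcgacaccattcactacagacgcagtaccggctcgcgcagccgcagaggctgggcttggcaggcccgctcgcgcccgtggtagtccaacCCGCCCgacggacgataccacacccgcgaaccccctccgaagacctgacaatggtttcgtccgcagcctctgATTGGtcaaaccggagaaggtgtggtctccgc
Nop58 promoter: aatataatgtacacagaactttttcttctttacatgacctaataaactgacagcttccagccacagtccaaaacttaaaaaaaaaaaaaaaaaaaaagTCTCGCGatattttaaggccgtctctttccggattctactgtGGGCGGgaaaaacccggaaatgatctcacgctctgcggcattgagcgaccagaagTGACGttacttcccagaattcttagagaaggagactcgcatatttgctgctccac

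Beyond the core proteins, 46 other genes of snoRNP assembly, transport and the nucleolus were examined, and 45 were listed (*Fbll1* was not). In the pooled comparison 14 rose, 17 fell and 14 were not called, with a median log2 fold change of -0.026, against a background of 26.8% higher and 27.0% lower. Partners and assembly factors of box C/D snoRNPs were split, with 1 higher and 2 lower of 6. *Nufip1*, an assembly factor of the box C/D class, rose from 1534 ± 21.2 normalized counts in Empty to 2462 ± 141 in SAM1 and 2445 ± 18.7 in SAM2 (SD, n = 3 each), a pooled log2 fold change of 0.68 (limma adjusted p = 1.16e-06). *Rrp9*, specific to the U3 snoRNP, fell by 0.34 (limma adjusted p = 0.00160), and *Znhit6*, another assembly factor, fell by 0.22 (0.00829 by limma). The *Znhit6* call was lost with the library totals scaling, at -0.10 (limma adjusted p = 0.227). *Snu13*, the protein that binds the kink-turn of box C/D RNAs and completes the core with FBL, NOP56 and NOP58, had 5405 ± 490 in Empty, 4820 ± 229 in SAM1 and 5869 ± 54.2 in SAM2. SAM2 was above SAM1 by 0.29 (limma adjusted p = 0.000526), and the pooled value of -0.020 (limma adjusted p = 0.877) changed sign under several alternatives.

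Of 7 genes of H/ACA assembly and telomerase, which shares the H/ACA proteins, 3 rose and 2 fell. *Tep1*, the telomerase-associated protein, rose by 0.75 (limma adjusted p = 5.46e-05), and *Tent4b*, which adds short A tails to snoRNAs, rose by 0.21 (0.000966 by limma). *Parn*, the ribonuclease that trims such tails, had 3930 ± 71.4 normalized counts in Empty, 2173 ± 28.6 in SAM1 and 2771 ± 52.5 in SAM2, a fall of 0.68 in the pooled comparison (log2 -0.68, limma adjusted p = 0.000438). The R2TP and prefoldin-like chaperones, which help assemble both classes, had 6 of 9 lower and 1 higher in the pooled comparison, and the same counts in SAM1 and in SAM2. *Pih1d1* fell by 0.55 (limma adjusted p = 3.22e-05) and *Pfdn2* by 0.30 (0.000113 by limma), while *Rpap3*, the partner of PIH1D1, rose by 0.28 (0.00131 by limma). The median over these 9 was -0.30, against 0.0087 for all genes. Among 8 genes of the Cajal body, cap and export, 2 rose and 1 fell. *Phax*, an export adaptor, rose by 0.40 (limma adjusted p = 0.000620) and *Xpo1*, the export receptor, by 0.28 (0.000334 by limma). *Tgs1*, which methylates the cap, fell by 0.20 (limma adjusted p = 0.0113), a call lost without Empty replicate 3 (0.0549 by limma) and with the library totals scaling (0.204 by limma).

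Of 15 other nucleolar proteins, 7 rose and 6 fell. *Tcof1* (treacle), which partners NOLC1, rose by 0.57 (limma adjusted p = 3.63e-06), and *Mybbp1a*, a nucleolar regulator of transcription, by 0.50 (1.73e-05 by limma). *Npm3*, of the nucleophosmin family, fell by 0.38 (limma adjusted p = 0.000239), in the same direction as *Npm1*. The largest log2 fold change was that of *Mki67*, which coats mitotic chromosomes and marks dividing cells. It had 2143 ± 274 normalized counts in Empty, 5893 ± 388 in SAM1 and 5758 ± 147 in SAM2, a rise of 1.45 (limma adjusted p = 4.64e-07). The part of dividing cells in the values of the 10 core genes was not tested.

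**Figure D5:**
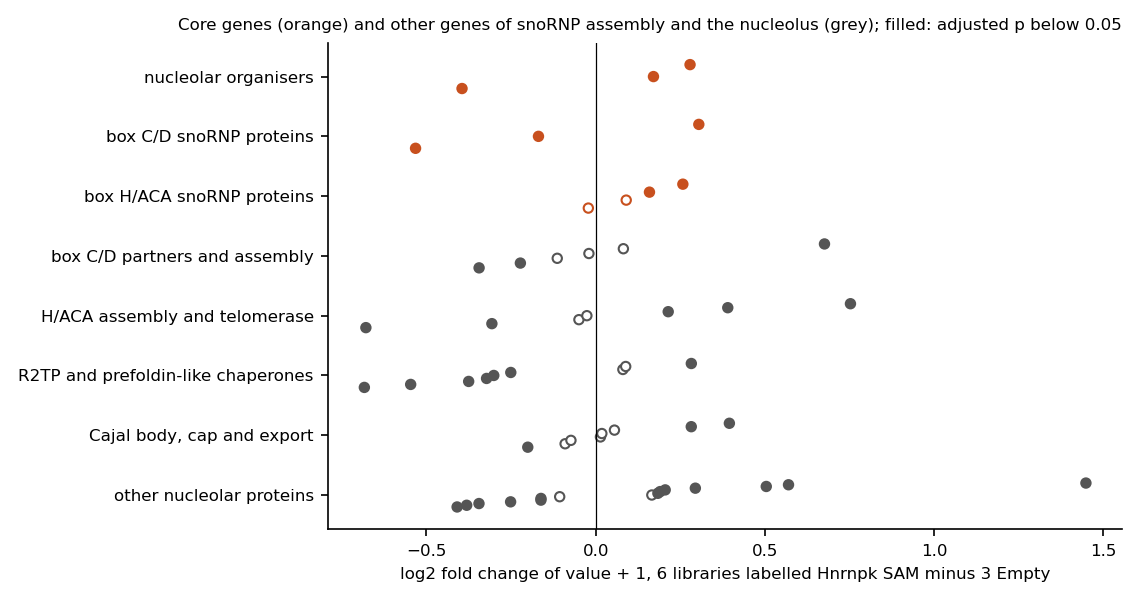
Pooled log2 fold change of each gene, by list, with the 10 core genes in orange and the 45 other genes in grey; filled points passed an adjusted p of 0.05 by limma. Each list of core proteins except box H/ACA holds genes on both sides of 0 that passed the test, and the R2TP list has 6 of 9 below 0.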

How the data were processed

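PolyA+ RNA of 9 MEF libraries (3 Empty, 3 SAM1, 3 SAM2, grouped by their titles) was sequenced in pairs of 43 bases. The authors checked reads with FastQC 0.11.0, aligned them to GRCm39 (Gencode vM29) with TopHat2, Bowtie2 and SAMtools, counted them with HTSeq, divided by DESeq2 size factors and kept genes above 10 in at least 30% of samples. The deposited values are thus a signal of normalized counts, not raw counts. All 15184 listed genes met the filter.

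Tests used limma 3.58.1 (R 4.3.3, empirical Bayes with trend, two-sided) on log2(value + 1), which understates changes of low genes, with p-values adjusted over all genes by Benjamini-Hochberg (threshold 0.05). The study's comparison (6 against 3) was fitted first, then 3 groups sharing 1 spread. edgeR 4.0.16 (quasi-likelihood) and DESeq2 1.42.0 were run as alternatives on whole reads recovered in 8 libraries (100% of values within 0.001 of a whole read). SAM2 replicate 1 gave no such reads. Other alternatives were a pseudocount of 10, a mean of at least 50, quantile normalization, TMM factors, library totals (added after seeing the data), a replicate block, the mean of the lines, and each library left out. The tests were also run on simulated counts with a fixed spread and no difference between the lines. Those settings differ from these data, so no result here rests on that run.

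The text names all 10 members, *Hnrnpk*, the 3 genes of each other list with the smallest adjusted p among called genes whose SAM1 and SAM2 libraries all lay on 1 side of Empty, and *Snu13*, *Tcof1* and *Npm3*. Members and lists were chosen with earlier results of these data known. Coordinates are from GENCODE vM39 on GRCm39, where 14791 listed names were found once. Scripts used Python 3.11.15 with pandas 2.3.3 and pysam 0.24.0. Libraries of a group differed by more than sampling noise (chi-square per gene 1.46 to 13.9), so each counted once. Genes outside the deposited table were not used here.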

Additional observations from a re-analysis of the deposited data

Results flagged for a closer look

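The lines SAM1 and SAM2 differed, by a test of the difference itself (limma, adjusted p below 0.05), in 4 of the 10 core genes. The log2 difference, SAM2 minus SAM1, was 0.28 for *Nop56*, 0.13 for *Npm1*, 0.090 for *Nop58* and -0.10 for *Nolc1*. Of all genes, 31.1% were called higher and 29.2% lower in SAM2 than in SAM1. *Nop56* passed in every alternative, while the call was lost under 10 alternatives for *Npm1*, 8 for *Nop58* and 3 for *Nolc1*.

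Beyond the core genes, 12 named genes were called between the lines by limma. SAM2 was above SAM1 by 0.35 for *Parn*, 0.29 for *Snu13*, 0.22 for *Tep1*, 0.13 for *Pih1d1*, 0.11 for *Rpap3*, 0.10 for *Mybbp1a*, 0.091 for *Tcof1* and 0.080 for *Pfdn2*. It was below SAM1 for *Rrp9* (-0.18), *Phax* (-0.17), *Znhit6* (-0.15) and *Xpo1* (-0.083). The calls of *Parn*, *Snu13*, *Tep1*, *Rrp9*, *Phax* and *Znhit6* held in every alternative tried. Those of the other 6 did not: *Pfdn2* and *Rpap3* lost theirs under 8 alternatives each, *Xpo1* and *Tcof1* under 7, and *Pih1d1* and *Mybbp1a* under 6.

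Among the 6 libraries labelled Hnrnpk SAM, SAM1 replicate 2 stood apart for *Nhp2*, at 4550 normalized counts, with a gap to the next library of 0.742 of the whole range. This was 1 of 27 genes examined for an outlying library, and the critical value used is one that chance passes in about 1 of 20 groups.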

How the results depend on the processing

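Of 690 values of the 10 core genes under alternatives, 640 kept their direction and their side of the threshold, 27 lost the call, 13 gained it and 10 changed sign. For the other named genes the numbers were 1169, 52, 8 and 13 of 1242. Most of those genes were named because they were called in these same data, so their numbers are no measure of stability. The counts of members called against Empty stayed within 1.5 times the main count in every alternative (6 to 8 pooled, 8 to 9 in SAM1 and 9 to 10 in SAM2 with 1 library left out). With 10 members, these counts could not rise past that limit. Of all 15184 genes, 6761 to 8133, 10734 to 11150 and 10014 to 10893 were called with 1 library left out. Without Empty replicate 3, the members called higher in the pooled comparison went from 5 to 3. Between the lines, 4 members were called, 2 with edgeR, 1 with DESeq2 (both without SAM2 replicate 1), and 1 to 4 with 1 library left out. For all genes these counts were 9162, 8415, 7565, and 8235 to 9492.

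Other than *Hnrnpk* in SAM1, the values that changed sign had missed the threshold with the authors' scaling. With the library totals scaling, *Gar1* became 0.10 pooled and 0.038 in SAM2, *Snu13* 0.10 and *Hnrnpk* 0.091 pooled, *Hnrnpk* 0.035 in SAM1, and *Nop10* -0.036 and *Tent4b* -0.0093 between the lines. With quantile normalization, *Snu13* became 0.055 and *Hnrnpk* 0.16 pooled, *Hnrnpk* 0.094 in SAM1, and *Nop10* -0.045 and *Tent4b* -0.017 between the lines. TMM factors gave *Nop10* -0.0011. With 1 library left out, pooled *Snu13* ranged from -0.083 to 0.047 (above 0 without Empty replicate 2, SAM1 replicate 1 or SAM1 replicate 3). Between the lines, *Nop10* ranged from -0.017 to 0.026 (below 0 without SAM1 replicate 1, SAM1 replicate 3 or SAM2 replicate 2), *Fbl* from -0.024 to 0.0089 (above 0 without SAM1 replicate 2 or SAM2 replicate 3), *Nufip1* from -0.040 to 0.038 (above 0 without SAM1 replicate 2) and *Mki67* from -0.083 to 0.011 (above 0 without SAM1 replicate 3). The cause was not tested.

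Same-numbered libraries deviated together with a mean r of 0.053 (0.0024 to 0.12, 9 pairs). For different numbers the mean r was -0.027 (-0.12 to 0.046, 18 pairs). Whether the numbers mark pairs is not stated, and the main fits did not pair them. With the replicate block, 8, 8 and 9 members were called pooled, in SAM1 and in SAM2, and 6 between the lines, where *Dkc1* and *Gar1* gained the call, while 7343, 11631, 11095 and 9812 of all genes were called. The 3 libraries per group, the unknown source of libraries within a line and the single Empty line limit what these comparisons carry.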
